A study of Mus musculus with 12 samples.

Results

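The response of the mouse small intestine to 24 h without food was followed in wild-type mice, across every gene on the array outside the transporter and drug metabolism families, that is, outside symbols that begin with Slc, Abc, Cyp or Gst. Of 12394 genes that the Affymetrix MOE430A array reads under exactly 1 symbol, 12003 lie outside these families. They were compared between 3 arrays of fed and 3 arrays of fasted wild-type mice, out of 12 arrays in 4 groups, each array being 1 biological replicate of total RNA from the full-length small intestine. The mice were male and 14 weeks old, and fed animals had free access to feed, named as AIN93M in the series record and as chow in the study's methods. Wild-type mice carry the strain label 129Sv in the fed group and 129S1/SvImJ in the fasted group. PPARα-null mice (129S4/SvJae), which lack the fatty acid receptor PPARα in the whole body, were fed or fasted alike and enter 1 comparison near the end. Values of single genes in these mice are given elsewhere too. The gut was flushed and cleared of fat and pancreas before RNA was taken, per the study's methods. The sources used here do not say whether several mice were pooled in a replicate. The p-values measure the spread between replicates alone, estimated within the 4 groups over all 12 arrays, those of PPARα-null mice included.

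A point in the labels bears on every result. The 3 fasted wild-type samples are titled wild-type and carry a wild-type strain, yet their description field names PPARα knockout tissue. Ppara itself, the gene of the receptor, read 19.9, 34.0 and 35.9 in fed and 58.7, 48.1 and 30.8 in fasted arrays. In PPARα-null mice it read 6.84, 7.5 and 7.35 when fed and 13.2, 11.7 and 10.96 when fasted. Each of the 6 wild-type arrays was therefore above each PPARα-null array, as the titles and strains say. The position of this probe set relative to the deleted stretch was not analysed here. Ppara was 1.86-fold higher upon fasting (log2 change 0.90 ± 0.23 SE, adjusted p = 0.016), and this call was lost as deposited, with wild-type arrays alone, without fed replicate 1 and without fasted replicate 1.

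The small intestine digests food, absorbs its products and packs dietary fat into chylomicrons. Its epithelium is renewed from dividing cells in the crypts, which also give rise to goblet, Paneth and enteroendocrine cells. During a fast, fatty acids released from adipose tissue become a main fuel, glucocorticoids rise, insulin falls, and the gene programmes of fatty acid oxidation and glucose production are known to be switched on in liver and other tissues, while programmes of lipid synthesis are switched off.

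Levels are given as intensities, the background-corrected and normalized probe set values as deposited, which have no unit and which rank samples within a probe set, not one gene against another. Fed arrays had medians of 12.7 to 12.8 and fasted wild-type arrays of 11.1 to 11.3, and fed and fasted values were written with different numbers of decimals. A difference in processing between the sets and the feeding state cannot be told apart. The median fasted minus fed difference over probe sets with a fed mean over 20 was -0.28 on the log2 scale, and every change below is relative to this shift. Without its removal each change, and each median of a gene list, is lower by 0.28. Intensities per array are printed as deposited, and overlap between groups was judged after removal of the shift. Correlations between arrays of 1 group were 0.994 to 0.995 in both wild-type groups.

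Counts of changed genes depend on the scaling. With the median shift removed, which itself sets the balance of rises and falls, 618 genes rose and 632 fell, and as deposited 173 rose and 2180 fell. A gene counted as changed where at least 1 of its probe sets had an unadjusted p under 0.01 together with a change of over 1.3-fold. The thresholds follow the study's own choice. Each gene so counted also had an adjusted p under 0.05 (limma, Benjamini-Hochberg). Of 5651 genes tested, 1261 changed, or 22.3%, against 22.7% of the 5821 genes tested when the 4 families are included. The level rose for 618 genes and fell for 632, and different probe sets moved in opposite directions for 11: Akap1, Clcn3, Dnajb4, Kpnb1, Mtm1, Parp1, Prkag1, Ss18, Tardbp, Wdfy1 and Wipf1. In 1232 of the 1261 genes the fed and the fasted arrays did not overlap. The thresholds on p and fold themselves select for separated arrays, so this count is no further evidence of change. The share without overlap among tested genes that were not called was not determined. Most changes were small, with quartiles of -0.20 and 0.19 over all probe sets tested outside the 4 families. A change over 2-fold was seen for 68 genes upward and 69 downward, and one over 4-fold for 14 and 5. Most of the 14 belong to the exocrine pancreas list described below. Among the 4 families, 59 of 170 genes changed (34.7%).

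**Figure D1:**
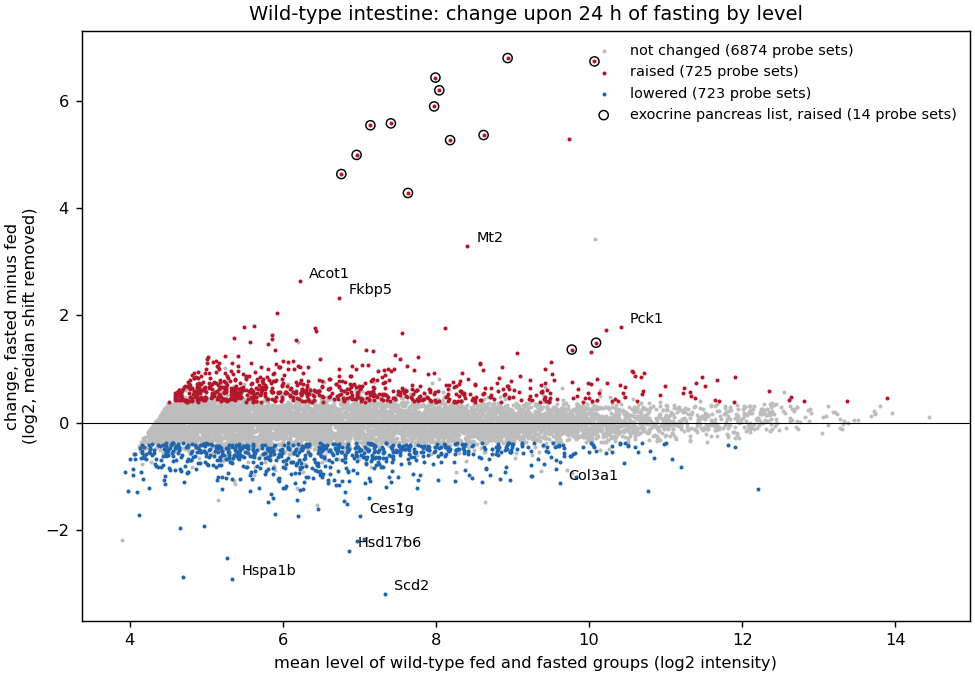
Change upon fasting (vertical axis, log2, shift removed) against the mean level of the fed and fasted wild-type groups (horizontal axis, log2 intensity) for each probe set tested outside the 4 families. Red points are 725 raised and blue points 723 lowered probe sets, grey points are 6874 that did not pass, and circles mark the 14 raised probe sets of the exocrine pancreas list, most of which lie among the highest points.

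The largest rises and falls were taken among called genes whose fed and fasted arrays did not overlap, so their separation is no result. The largest rises outside the fixed list of exocrine pancreas genes were those of 2210010C04Rik, the metallothionein gene Mt2, Acot1 and Fkbp5. The probe set of 2210010C04Rik, a gene of the trypsinogen family that the list did not hold, read 496, 43.9 and 38.2 in fed and 4156, 2798 and 2333 in fasted arrays, which is 38.9-fold higher, with fed replicate 1 above the other fed arrays as for the pancreatic genes. Its call was lost without fed replicate 2 or 3 or without fasted replicate 1. Acot1, a cytosolic thioesterase that releases fatty acids from coenzyme A, read 23.7, 29.2 and 37.8 in fed and 169, 126 and 163 in fasted arrays. All 3 fasted arrays lay far above the fed ones, a 6.20-fold rise with the smallest adjusted p among the rises named (2.63 ± 0.15 SE, adjusted p = 1.71e-06). Serpina3n, a serine protease inhibitor of the acute phase, read 17.8, 26.6 and 24.5 in fed and 319.5, 31.4 and 45.5 in fasted arrays. The size of its mean rise, 4.14-fold, rests on fasted replicate 1, although the groups did not overlap and the call held without that array. The call was lost as deposited, with wild-type arrays alone, with trended and robust variances and without fed replicate 1 or 3.

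Other large rises came from genes of varied function. Arrdc4, an arrestin-domain protein related to Txnip, read 23.9, 29.9 and 24.4 in fed and 102, 59.3 and 66.1 in fasted arrays (3.46-fold, adjusted p = 8.58e-05). Rdh16f2, a gene of the retinol dehydrogenase family, read 28.2, 21.9 and 22.7 in fed and 73.8, 65.9 and 64.0 in fasted arrays (3.42-fold, adjusted p = 1.36e-05). Upb1, which completes pyrimidine breakdown, read 33.7, 44.3 and 48.7 in fed and 107, 84.4 and 109 in fasted arrays (2.90-fold, adjusted p = 0.00064). In each of these the lowest fasted array exceeded the highest fed array, by the deposited values too. Ndrg1, a gene raised by many kinds of stress, rose 3.24-fold and was called by all 5 of its probe sets. N4bp2l1 rose 2.95-fold, with fasted replicate 1 highest at 127.7 against 61.4 and 63.7 in the other fasted arrays. Clu, the extracellular chaperone clusterin, rose 2.85-fold (61.4, 86.6 and 67.7 in fed and 199.9, 177 and 131 in fasted arrays), called by 3 of its 4 probe sets.

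The largest fall was that of Scd2, a stearoyl-CoA desaturase that makes monounsaturated fatty acids. It read 465, 477 and 511 in fed and 33.2, 49.2 and 50.0 in fasted arrays, a 9.16-fold drop (-3.19 ± 0.19 SE, adjusted p = 1.71e-06), and its other probe set fell as well. Hsd17b6, a hydroxysteroid dehydrogenase, read 199.7, 298 and 284 in fed and 52.1, 51.2 and 24.5 in fasted arrays and was 5.24-fold lower. Fam151a read 321, 308 and 214 in fed and 39.4, 69.8 and 46.2 in fasted arrays and was 4.51-fold lower. The fed and fasted arrays of these genes were separated by gaps wider than the range within either group.

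Further large falls came from genes of varied function. Ubd, a ubiquitin-like modifier induced by interferon-γ, read 179, 428 and 222 in fed and 38.3, 41.0 and 59.7 in fasted arrays (4.65-fold lower, adjusted p = 0.02). Slpi, a secreted protease inhibitor of mucosal surfaces, read 102, 161 and 141 in fed and 37.3, 33.1 and 27.6 in fasted arrays (3.35-fold lower). Ces1g, a carboxylesterase of lipid and drug ester cleavage, read 201, 233 and 271 in fed and 44.2, 69.0 and 60.4 in fasted arrays (3.36-fold lower). The fasted values of these genes were all below the fed ones, and the call of Ubd was lost without fed replicate 2 or without fasted replicate 1. Npl, the lyase that splits sialic acid, fell 3.30-fold, Gda, the guanine deaminase, 3.07-fold, Sgk2, a serum- and glucocorticoid-regulated kinase family member, 3.25-fold and Ank3, a membrane-skeleton ankyrin, 2.77-fold. Rmdn3 fell 2.87-fold by 1 of its 2 probe sets, and Ighm, the heavy chain of IgM, 3.83-fold by 4 of 7, a call lost without fed replicate 1 or without fasted replicate 2.

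**Figure D2:**
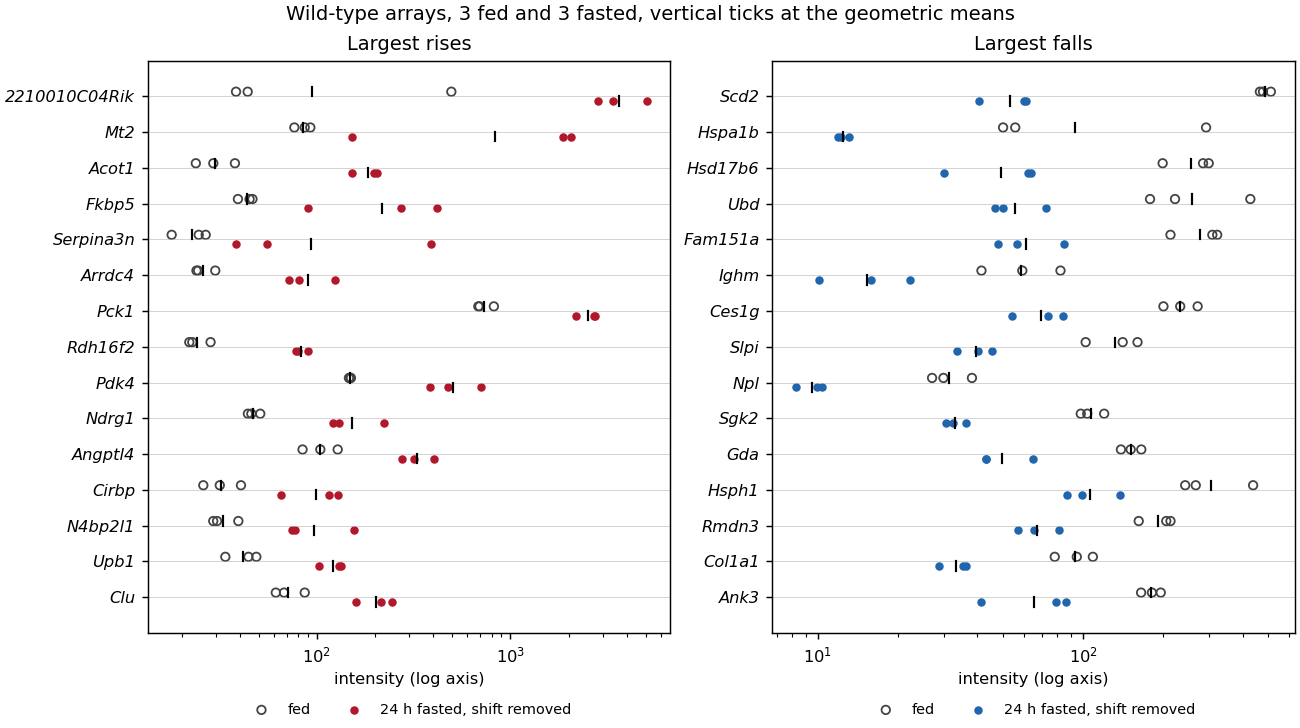
Intensity (horizontal log axis) of the genes with the largest rises (left) and falls (right) outside the exocrine pancreas list, in each of 3 fed arrays (open circles) and 3 fasted arrays (filled, shift removed), with vertical ticks at the geometric means. Only genes whose groups do not overlap were eligible, so the separation is set by the choice. Serpina3n, Fkbp5 and Mt2 show wide spread among fasted arrays and 2210010C04Rik, Hspa1b and Ubd among fed arrays.

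Genes of fatty acid oxidation, most of them known targets of PPARα, rose in part. Of 38 tested, 16 rose and the others did not pass, and 33 had a change above 0. The median change was 0.28, beside -0.0021 over all probe sets tested outside the 4 families. One probe set per gene was used for this and each later list, and on that basis 8.65% of all genes tested rose and 8.96% fell. Acot1 led the list. Pdk4, the kinase that shuts off pyruvate dehydrogenase and so spares glucose, read 149, 150.1 and 147 in fed and 579.6, 391 and 315 in fasted arrays (3.40-fold higher, adjusted p = 0.00043). Angptl4, a secreted inhibitor of lipoprotein lipase, read 84.4, 104 and 128 in fed and 331, 228 and 262 in fasted arrays (3.16-fold higher, adjusted p = 0.00089). Eci2, an isomerase of unsaturated fatty acid breakdown, read 458, 527 and 472 in fed and 824, 716 and 848 in fasted arrays (1.99-fold higher, adjusted p = 0.00016). Fed and fasted arrays did not overlap in these genes, and Pdk4 was nearly the same in the 3 fed arrays.

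The mitochondrial pathway moved at several steps. Cpt1a, which loads fatty acids onto carnitine, rose by 0.78 (log2), and the acyl-CoA dehydrogenases Acadvl and Acadl by 0.63 and 0.55. Ech1, Eci1 and Acaa2, enzymes of the later steps, rose by 0.70, 0.65 and 0.67, and Etfb, which passes on the electrons, by 0.44. Of peroxisomal genes, Pex11a rose by 0.98 and Hsd17b4, the bifunctional enzyme, by 0.41. Plin2, a lipid droplet coat protein, rose by 0.46, Retsat, the retinol saturase, by 0.59, and Creb3l3, a transcription factor of fasting, by 0.53. Hadh, the hydroxyacyl-CoA dehydrogenase, did not pass at 8323, 8566 and 8176 in fed and 7347, 7401 and 7664 in fasted arrays (0.12, adjusted p = 0.23). With the values as deposited 8 of the 16 calls were made and the median was -0.0020, and with arrays left out in turn 14 to 17 members rose.

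Enzymes of ketone bodies did not rise with fatty acid oxidation. Of 3 tested, Oxct1, which uses ketone bodies, fell by 0.50 (603, 552 and 578 in fed and 297, 387 and 329 in fasted arrays), although 1 of its 4 probe sets was called. Bdh1, the hydroxybutyrate dehydrogenase, fell by 0.40, a call lost without fed replicate 2 or 3 and without fasted replicate 1 or 3. Acat1 did not pass at 0.038 (adjusted p = 0.81).

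Genes of glucose production and glutamine use rose in part: 5 of 13 tested passed upward, with a median of 0.28. Pck1, which makes phosphoenolpyruvate and commits carbon to glucose, read 693, 684 and 823 in fed and 2216, 2251 and 1786 in fasted arrays (3.45-fold higher, adjusted p = 3.03e-05). G6pc, the phosphatase that frees glucose, read 194, 147 and 89.1 in fed and 351, 176 and 289 in fasted arrays (2.33-fold higher, adjusted p = 0.0098). Glud1, the glutamate dehydrogenase, read 2206, 2061 and 2132 in fed and 3216, 2852 and 3356 in fasted arrays (1.79-fold higher, adjusted p = 0.0002). The rise of Pck1 and Glud1 exceeded the spread within groups several times over, while fasted replicate 2 of G6pc was below fed replicate 1 before the shift was removed. Glul, glutamine synthetase, rose by 1.07 and Fbp1, the bisphosphatase of gluconeogenesis, by 0.72. Fbp2 and the alanine transaminase Gpt had changes of 0.31 and 0.28 that did not pass. As deposited the same number of members rose and 1 fell.

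Glycolysis, the respiratory chain and the urea cycle stood near the array as a whole. In glycolysis and fructose use, 0 of 18 members were called by limma, with 1 up and 1 down at an unadjusted p under 0.05 and a median of -0.05, though 6 fell as deposited. Gapdh changed by -0.064 and Ldha by -0.28, which did not pass. Of 44 subunits of the respiratory chain and ATP synthase, 36 lay below 0 with a median of -0.07, and Ndufb2 was called (fell by 0.42). Its call was lost without fed replicate 3 or without fasted replicate 3, and as deposited 20 subunits fell. Of 14 genes of the urea cycle, arginine and polyamines, Nags, which makes the activator of the cycle, rose by 0.46, and Arg2 had 0.33 without passing the fold, and as deposited 0 rose by limma (0 at an unadjusted p under 0.05) and 6 fell.

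Genes of fat uptake and packing rose in part. In the list of triglyceride synthesis and chylomicron assembly 6 of 27 members rose, with a median of 0.09. Cd36, a fatty acid uptake receptor, read 1188, 1087 and 1160.0 in fed and 1889, 1424 and 1888 in fasted arrays (1.83-fold higher, adjusted p = 0.00034), and its 3 probe sets were all called. Mgll, the monoglyceride lipase, read 32.9, 47.5 and 49.6 in fed and 73.3, 87.6 and 57.3 in fasted arrays (2.05-fold higher, adjusted p = 0.0013). Agpat3, an acyltransferase, rose by 0.79 and Dgat2, which makes triglyceride, by 0.39. Apoa1, the main apolipoprotein of HDL, rose by 0.46 (1 of 4 probe sets) and Fabp1, a fatty acid binding protein, by 0.40 (1 of 2 probe sets). Both calls were lost as deposited, with quantile normalization and with a shift that follows the level, and that of Fabp1 without fed replicate 1. Apoa4 and Fabp2, an apolipoprotein and a fatty acid binding protein of enterocytes, had changes of 0.12 and 0.049 that did not pass. As deposited 3 members rose and 3 fell, with a median of -0.19, and quantile normalization left 3 raised.

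Lipid synthesis fell in part. Of 14 genes of fatty acid synthesis and desaturation, 6 fell and 1 rose, with a median of -0.27. Besides Scd2, Fasn, the fatty acid synthase, read 40.1, 65.0 and 60.7 in fed and 21.0, 20.5 and 23.6 in fasted arrays (2.05-fold lower, adjusted p = 0.00074). Mid1ip1, which promotes acetyl-CoA carboxylase polymers, read 119.9, 120.4 and 100.5 in fed and 42.7, 43.9 and 43.6 in fasted arrays (2.14-fold lower, adjusted p = 0.0011). Elovl6 and Elovl5, which lengthen fatty acids, fell by 0.64 (a call lost without fed replicate 2 or fasted replicate 3) and 0.52, and Acss2, which makes acetyl-CoA from acetate, fell by 0.53. Srebf1, the gene of the transcription factor that drives many of these enzymes, moved the other way and read 193, 262 and 242 in fed and 513, 279 and 324 in fasted arrays (1.90-fold higher, adjusted p = 0.0039), with fasted replicate 1 far above the others. Mlxipl and Tecr, at -0.12 and -0.087, did not pass.

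Cholesterol synthesis fell in part of its pathway. Of 16 genes tested 6 fell, 13 had a change below 0 and the median was -0.22. Fdps, which makes farnesyl diphosphate, read 98.7, 145 and 167 in fed and 53.5, 73.3 and 45.7 in fasted arrays (1.95-fold lower, adjusted p = 0.0071). Tm7sf2, a sterol reductase, read 121, 146 and 117 in fed and 55.2, 63.1 and 45.1 in fasted arrays (1.94-fold lower, adjusted p = 0.00064). Idi1, the isomerase before Fdps, read 308, 339 and 335 in fed and 161, 143 and 165 in fasted arrays (1.72-fold lower, adjusted p = 0.0042). The groups were apart in each of these genes. Sqle, the squalene epoxidase, fell by 0.71 (a call lost without fasted replicate 1), Pmvk by 0.51 and Lss by 0.45. Hmgcs1, an early enzyme of the pathway, read 1038, 660.1 and 809.8 in fed and 785, 713 and 768 in fasted arrays and did not pass (0.16), with groups that overlap.

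**Figure D3:**
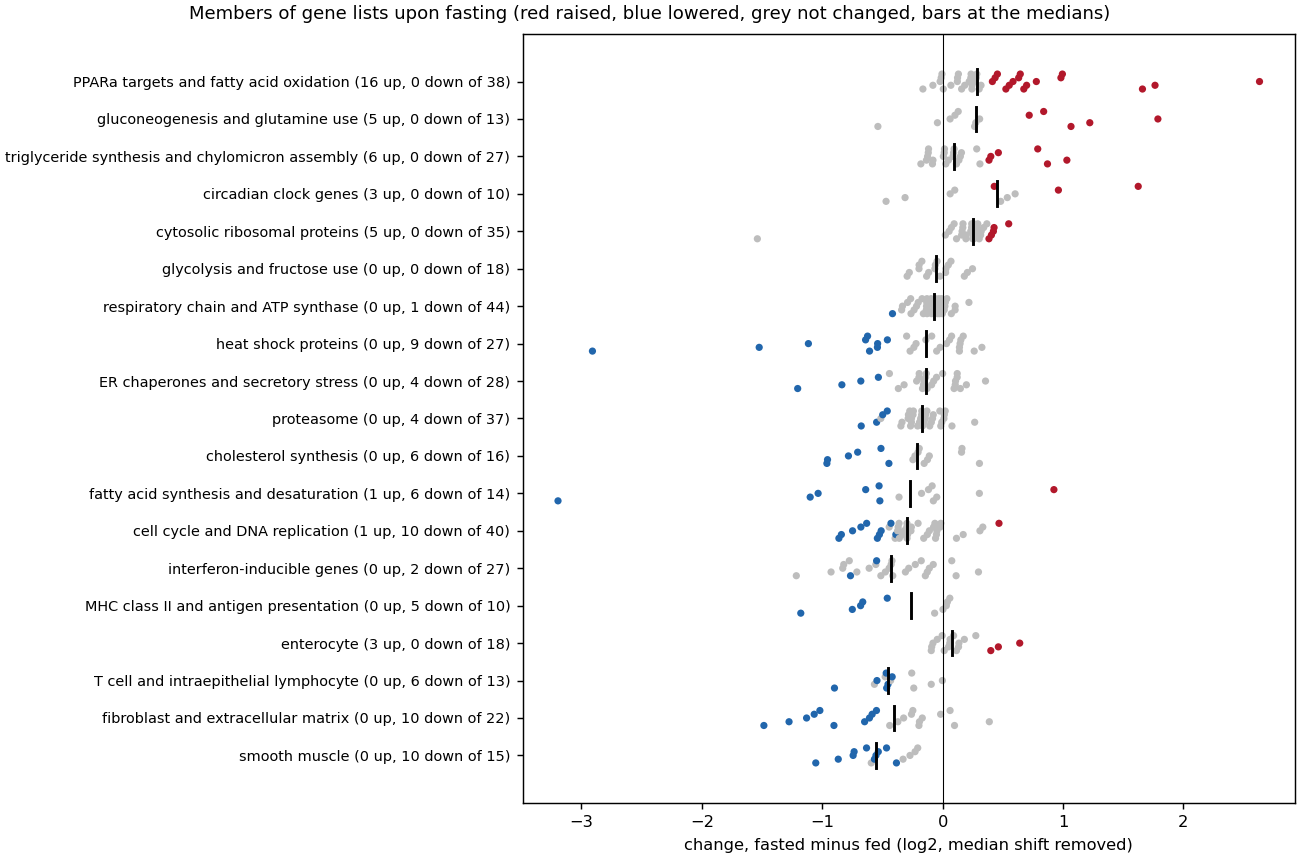
Change upon fasting (horizontal axis, log2, shift removed) of each tested member of 19 gene lists, 1 probe set per gene, in red where raised, blue where lowered and grey where not changed, with the counts beside each name and black bars at the medians. Fatty acid oxidation and gluconeogenesis lie to the right of 0, and smooth muscle, extracellular matrix, T cell and cell cycle genes to the left.

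Metallothioneins, small proteins that bind zinc and copper and are induced by metals and by glucocorticoids, rose in 2 of the 3 fasted arrays. Mt2 read 86.6, 76.5 and 92.6 in fed and 124, 1685 and 1534 in fasted arrays, a mean rise of 9.81-fold (3.29 ± 0.73 SE, adjusted p = 0.0071). Mt1 read 542, 492 and 672 in fed and 459, 3373 and 2329 in fasted arrays, a mean rise of 3.31-fold with an adjusted p of 0.032, and its groups overlapped. Fasted replicate 1 stayed near the fed level in both genes. The call of Mt2 held with each array left out, and that of Mt1 was lost without any of the fed arrays and without fasted replicate 2 or 3. Of 9 genes of metal handling tested, 3 rose, the other being Ireb2, an iron-regulatory protein (109, 93.4 and 125 in fed and 162, 163 and 134 in fasted arrays, 1.71-fold). Fth1, the ferritin heavy chain, did not pass at 0.035.

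The 250 bases upstream of the annotated starts of Mt1 and Mt2, neighbours on chromosome 8, are shown because both genes moved in the same arrays and the metal response element is the known control site of the family. Letters of the element, TGCACNC or TGCGCNC on either strand, are in capitals. Sequences are from RefSeq on GRCm38.p6, plus strand, at chr8:94178839-94179088 for Mt1 and chr8:94172368-94172617 for Mt2.
Mt1: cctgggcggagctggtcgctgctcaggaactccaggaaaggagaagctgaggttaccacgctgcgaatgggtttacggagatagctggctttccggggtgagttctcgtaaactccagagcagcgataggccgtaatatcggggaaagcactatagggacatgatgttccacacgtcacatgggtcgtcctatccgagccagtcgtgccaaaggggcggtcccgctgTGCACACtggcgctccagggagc
Mt2: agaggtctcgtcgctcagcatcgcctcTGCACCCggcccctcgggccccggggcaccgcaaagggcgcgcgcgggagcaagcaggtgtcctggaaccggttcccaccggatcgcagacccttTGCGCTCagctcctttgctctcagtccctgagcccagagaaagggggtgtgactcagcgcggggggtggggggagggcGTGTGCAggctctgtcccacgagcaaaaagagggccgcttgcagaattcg
Mt1 held 1 match, which begins 23 bases before the start, and Mt2 held 3, which begin 223, 128 and 50 bases before it. Of 27025 genes with such a window, 23.8% held at least 1 match and 1.46% held 3 or more, and of 8 members of the metal list with a window 3 held one, Tfrc being the other. A match is a description of letters, not of binding.

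Genes known to respond to glucocorticoids and to fasting signals rose in part. Fkbp5, a co-chaperone of the glucocorticoid receptor and one of its best known targets, read 39.1, 44.9 and 46.5 in fed and 344, 73.6 and 224 in fasted arrays (5.01-fold higher, adjusted p = 0.0015), so that its fasted arrays spanned a wide range and still lay above the fed ones. Errfi1, a feedback inhibitor of the EGF receptor, read 104, 123 and 139 in fed and 217, 298 and 176 in fasted arrays (2.26-fold higher, adjusted p = 0.0033). Of 18 tested, 4 rose and 2 fell, with a median of 0.23. Txnip, which restrains glucose uptake, and Bcl6, a transcriptional repressor, rose by 0.47 and 0.51. Both calls were lost as deposited and without fasted replicate 3, and that of Bcl6 also without fed replicate 2 or 3 or fasted replicate 1. Trp53inp2 and Sesn1 fell by 0.51 and 0.46, the latter a call lost without fed replicate 1 or 2 or fasted replicate 1 or 2. As deposited 2 rose and 2 fell. The kinase Sgk1 read 1281, 1131 and 1474 in fed and 1485, 1966 and 1006 in fasted arrays and did not pass.

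Of 10 clock genes tested 3 rose, with a median of 0.46, and 8 had a change above 0 and 2 below. Cirbp, a cold-induced RNA-binding protein with a daily rhythm, read 31.5, 40.6 and 25.9 in fed and 106, 53.7 and 95.0 in fasted arrays (3.08-fold higher, adjusted p = 0.00069). Cry2, a repressor of the clock, read 31.6, 28.6 and 28.8 in fed and 49.1, 31.3 and 69.1 in fasted arrays (1.95-fold higher, adjusted p = 0.0094), with fasted replicate 2 next to the fed arrays. Clock rose by 0.43 (41.2, 39.1 and 39.9 in fed and 45.1, 41.6 and 46.4 in fasted arrays), a call lost as deposited and without any 1 array other than fasted replicate 2. Nr1d2 had 0.48 and did not pass, with arrays that overlap, and Arntl, which lay below 0, had -0.47 and did not pass. Among 18 immediate early genes Myc rose by 0.57 and Dusp6, a phosphatase that switches off ERK, fell by 0.97. The call of Myc was lost without any 1 array other than fed replicate 3 and under 3 of the 4 other scalings. The list had 2 lowered members without fed replicate 3 or fasted replicate 1, and 3 without fasted replicate 2, and as deposited 7 fell.

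Heat shock proteins and their co-chaperones, which fold proteins and are induced together by heat and misfolding, fell in part. Of 27 tested 9 fell, with a median of -0.14. Hspa1b, the inducible member of the Hsp70 family, read 55.5, 50.0 and 291 in fed and 9.77, 10.7 and 10.1 in fasted arrays, a 7.51-fold drop (-2.91 ± 0.54 SE, adjusted p = 0.0028), called by all 3 of its probe sets. Fed replicate 3 was well above the other fed arrays, the fasted arrays were alike, and the call held with each array left out. Hsph1, a partner of Hsp70, read 243, 266 and 438 in fed and 81.5, 113 and 71.5 in fasted arrays (2.87-fold lower, adjusted p = 0.0019). Chordc1, a co-chaperone of Hsp90, read 196, 239 and 325 in fed and 89.0, 113 and 82.8 in fasted arrays (2.17-fold lower, adjusted p = 0.014), a call lost without fed replicate 3, which was the highest array in all of these genes.

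Smaller falls in the list came from Ahsa2 (fell by 0.64), Hsp90aa1 (fell by 0.62), Stip1 (fell by 0.61), Dnaja1 and Dnajb4 (each fell by 0.54) and Cacybp (fell by 0.46). Dnajb4 rose by its other called probe set. As deposited 14 members fell. Hspa8, the constitutive Hsp70, did not pass in the probe set used for the list (3407, 3176 and 3939 in fed and 3801, 3497 and 3503 in fasted arrays), while another of its 4 probe sets fell. The 250 bases upstream of the start of Hspa1b are shown with the heat shock element, GAANNTTC, in capitals, because this gene had the steepest fall of the family. The stretch lies on the minus strand at chr17:34959239-34959488 of GRCm38.p6 (RefSeq), and its match begins 104 bases before the start.
Hspa1b: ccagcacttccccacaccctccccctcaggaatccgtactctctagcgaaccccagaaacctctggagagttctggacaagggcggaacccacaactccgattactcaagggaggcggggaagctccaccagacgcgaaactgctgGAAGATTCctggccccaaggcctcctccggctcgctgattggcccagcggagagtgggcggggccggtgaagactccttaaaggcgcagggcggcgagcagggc
Of 24 members with a window 8 held this element, among them Hspa1b and Dnaja1 of the 8 that fell and have one, beside 7.73% of all genes.

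Stress genes of the endoplasmic reticulum fell in fewer members. Of 28 chaperones and stress genes 4 fell, with a median of -0.14. Hyou1, a large chaperone of the compartment, read 226, 297 and 223 in fed and 89.5, 93.2 and 81.3 in fasted arrays (2.30-fold lower, adjusted p = 0.00012). Ero1a, the oxidase that forms disulfide bonds, read 162, 202 and 268 in fed and 84.6, 99.5 and 101 in fasted arrays (1.79-fold lower, adjusted p = 0.0047), called by all 3 of its probe sets. Sdf2l1 and Creld2 fell by 0.68 and 0.53, the latter lost without fed replicate 1 or 3 and without fasted replicate 2 or 3. P4hb and Calr, a disulfide isomerase and a calcium-binding chaperone, had changes of 0.15 and -0.14 that did not pass. As deposited 15 members fell. The ER stress element, a known binding site of ATF6 and sought on either strand, lay in the 250 bases before the start of 9 of 23 members with such a window, 1 of them among the 3 that fell and have one, beside 0.130% of all genes. Among 18 genes of the amino acid stress response Gars, a tRNA synthetase, rose by 0.67 and Gadd45a, a growth arrest gene, fell by 0.99, and as deposited 4 fell.

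Antioxidant genes, many of them targets of the transcription factor Nrf2, fell in a way that hung on single arrays. Of 31 tested 6 fell and 1 rose, with a median of -0.14. Gpx2, the gastrointestinal glutathione peroxidase, read 2426, 3082 and 3808 in fed and 1099, 2098 and 1236 in fasted arrays (1.77-fold lower, adjusted p = 0.027), with groups that overlapped once the shift was removed. Ephx1, an epoxide hydrolase, read 71.6, 141 and 160.5 in fed and 39.4, 50.3 and 69.1 in fasted arrays (1.87-fold lower, adjusted p = 0.03), and Nqo1, a quinone reductase, fell by 0.74, both with overlap. Keap1, the repressor of Nrf2, fell by 0.47, while Mgst1, a microsomal glutathione transferase, rose by 0.45, a call lost as deposited and with quantile normalization. As deposited 17 members fell. Without fed replicate 3 the list had 0 lowered members by limma, with 9 lower at an unadjusted p under 0.05. Without fed replicate 2 or fasted replicate 1 it had 1, and without fasted replicate 3 it had 2.

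Few genes of the proteasome, which degrades tagged proteins, passed. Of 37 subunits and regulators 32 had a change below 0, the median was -0.17, and 4 fell: Psme3 (fell by 0.68), Psmb8 of the immunoproteasome (fell by 0.55), Psmd14 (fell by 0.50) and Psma1 (fell by 0.46). With arrays left out the number was 2 (fed replicate 2 or 3, fasted replicate 1 or 3) or 7 (fasted replicate 2), and as deposited it was 25. Of 31 genes of autophagy and lysosome 3 rose, namely Bnip3, a mitophagy receptor (31.6, 30.3 and 47.9 in fed and 51.5, 51.3 and 81.1 in fasted arrays, 2.04-fold), Neu1, a lysosomal sialidase (0.46), and Lamp2, a lysosomal membrane protein (0.46, a call lost without fasted replicate 1). The calls of Neu1 and Lamp2 were lost as deposited, where 1 member rose and 10 fell. Map1lc3a, a marker of autophagosomes, fell by 0.42, a call lost without fed replicate 2 or 3 or fasted replicate 1 or 3, and without fasted replicate 2 there were 5 raised members. Of 20 targets of p53 Pmaip1, a promoter of apoptosis, rose by 0.82, a call lost as deposited and without fed replicate 2 or 3 or fasted replicate 1, and Sesn1 fell. As deposited 5 of these fell.

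Genes of cell division fell in part. Of 40 genes of the cell cycle and DNA replication 35 had a change below 0 and 10 fell, with a median of -0.30. Rrm1 and Rrm2, the subunits of ribonucleotide reductase, read 79.7, 65.4 and 81.4 in fed and 30.1, 35.7 and 36.4 in fasted arrays and 143, 173 and 132 in fed and 61.1, 99.5 and 51.7 in fasted arrays (1.82-fold and 1.79-fold lower). Mcm4, of the replicative helicase, read 44.9, 54.5 and 45.5 in fed and 22.6, 25.1 and 26.6 in fasted arrays (1.601-fold lower, adjusted p = 0.00064). Ccna2, cyclin A, fell by 0.75, with groups that overlapped and a call lost without fed replicate 2 or 3 or fasted replicate 3. Cdt1, which licenses replication origins, was the member that rose (0.47), a call lost without fed replicate 1 or 3 or fasted replicate 1 or 3. Pcna changed by -0.30 and H2az1 by -0.26 without passing the fold. Without fed replicate 2 the list had 6 lowered members, and as deposited it had 26.

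Cytosolic ribosomal proteins moved together by a small amount. The change was above 0 in 34 of 35 tested, with a median of 0.25, and 5 passed upward, among them Rpl37 (269, 282 and 269.7 in fed and 347, 322 and 319 in fasted arrays, 1.46-fold), Rps19 (0.43), Rpl13a (0.42) and Rplp0 (0.41). This direction depends on the scaling. The shift between fed and fasted arrays was -0.22 over probe sets with a mean log2 level over 10, against -0.30 between 6 and 10. The median was -0.03 as deposited, 0.15 with quantile normalization and 0.15 with a shift that follows the level, and the number raised was 0 as deposited by limma (1 up and 4 down at an unadjusted p under 0.05) and 1 under each of the others. Of 26 genes of ribosome biogenesis Imp3 rose (0.48) and Nop2 fell by 0.43, the latter a call lost without fed replicate 3 or fasted replicate 2, and as deposited 7 fell. Of 37 splicing regulators 3 rose, led by Cirbp (1.63), which is also counted among the clock genes, and by Rbm39 (0.81, 5 of 6 probe sets). Another 3 fell, led by Srsf10 (fell by 0.57), and as deposited 2 rose and 11 fell. Of 19 genes of the Wnt pathway and crypt stem cells Myc rose and Hopx, a marker of slowly cycling crypt cells, fell by 0.64, and as deposited 4 fell.

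Enterocyte markers changed little. Of 18 tested 3 rose, namely Tm4sf20 (327, 388 and 301 in fed and 424, 382 and 495 in fasted arrays), Apoa1 and Fabp1, and the call of Tm4sf20 was lost as deposited and without fed replicate 1 or 3 or fasted replicate 1 or 3. The summed level of the list was 93142 to 99220 in fed arrays and 106360 to 110809 in fasted arrays after removal of the shift. The median was 0.08, but -0.21 as deposited and -0.02 with quantile normalization, and 1 member rose under quantile normalization. As deposited 0 rose by limma, with 1 up and 9 down at an unadjusted p under 0.05. Of 13 digestive enzymes of the brush border Xpnpep2, an aminopeptidase, rose by 0.46, a call lost without fed replicate 2 or 3 or fasted replicate 1 or 3. Anpep and Enpep, other peptidases, had 0.13 and 0.17 and did not pass.

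The secretory lineages of the epithelium each had single genes that moved. Among 11 Paneth cell and antimicrobial products Mmp7, which activates defensins, read 474, 589.8 and 492 in fed and 659, 603 and 831 in fasted arrays (1.63-fold higher, adjusted p = 0.0023), while the lysozyme Lyz1 (0.18) and Itln1 (0.11) did not pass. Among 15 goblet cell products the membrane mucin Muc3, which enterocytes also carry, read 2941, 2839 and 2765 in fed and 4317, 4138 and 4223 in fasted arrays (1.81-fold higher, adjusted p = 9.44e-05). Spink4, Agr2, which folds mucins, and Sytl2 fell by 0.43, 0.45 and 0.85. The call of Spink4 was lost without fasted replicate 1, and that of Agr2 also without fed replicate 2 or 3 or fasted replicate 3. Among 12 enteroendocrine products Cck, the hormone of gall bladder contraction and satiety, read 162, 165 and 195 in fed and 78.1, 81.8 and 63.5 in fasted arrays (1.92-fold lower, adjusted p = 0.0023), with groups that were apart. Chga, a granule protein of all these cells, rose by 0.59, a call lost as deposited and without any 1 array other than fasted replicate 3, and Gip had -0.026 without passing. As deposited 3 of these products fell. Of 30 genes of junctions and epithelial cytoskeleton Cldn2, a pore-forming claudin of the crypts, read 211, 191 and 186 in fed and 88.9, 98.5 and 82.4 in fasted arrays (1.79-fold lower, adjusted p = 0.011), Cldn23 fell by 0.39 (a call lost without fed replicate 3 or fasted replicate 1 or 2) and Krt18 rose by 0.54, a call lost as deposited, where 5 members fell.

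Genes of antigen presentation by MHC class II fell in part. Of 10 genes tested in the list 5 fell, with a median of -0.26. H2-Aa read 2742, 2996 and 2506 in fed and 1374, 1378 and 1462 in fasted arrays (1.603-fold lower, adjusted p = 0.0014). H2-Eb1 read 1721, 2085 and 1681 in fed and 882, 893 and 892 in fasted arrays (1.68-fold lower, adjusted p = 0.00061). H2-DMa, which loads peptides, read 91.5, 119.9 and 87.1 in fed and 32.4, 41.7 and 33.8 in fasted arrays (2.26-fold lower, adjusted p = 0.0015). Every fed array of these genes was above every fasted one, and H2-Ab1 fell by all 3 of its probe sets. The class I genes B2m and H2-D1 had changes of 0.031 and 0.0031 and did not pass. Of 27 interferon-inducible genes 24 had a change below 0 with a median of -0.43, but 2 passed, Ifi47 (fell by 0.76) and Psmb8. Without fasted replicate 2 there were 6, with any other array left out 1, and as deposited 11.

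Immune cell markers lay lower in fasted arrays. All 13 tested markers of T cells and intraepithelial lymphocytes had a change below 0, with a median of -0.45, and 6 fell, led by the granzyme Gzmb (96.1, 230.1 and 159.8 in fed and 67.2, 72.1 and 62.4 in fasted arrays, 1.86-fold lower) and Rac2 (fell by 0.55). The call of Gzmb was lost without fed replicate 2 or 3 or fasted replicate 3, and that of Rac2 without fed replicate 1 or 2 or fasted replicate 1. Without fed replicate 2 the number was 2 and as deposited 10. The summed level of the list was 3130 to 3695 in fed and 2454 to 2934 in fasted arrays after removal of the shift. Of 9 B and plasma cell markers Cd79a, of the B cell receptor, fell by 1.07, a call lost without fed replicate 2 or fasted replicate 3, and the sums were 6635 to 7451 and 4908 to 6737. Of 11 markers of macrophages and dendritic cells Aif1, C1qa and Csf1r fell by 0.62, 0.60 and 0.46, while the lysosomal protease Lgmn rose by 1.25 (113, 113 and 109 in fed and 302, 146 and 236 in fasted arrays). The calls of C1qa and Csf1r were both lost without fed replicate 2 or 3 or fasted replicate 2, that of C1qa without fasted replicate 3, and that of Csf1r without fed replicate 1 or fasted replicate 1 and under 3 other scalings. As deposited 7 members fell and 1 rose. The sums of this list were 3882 to 4219 and 3385 to 3901. The part of these markers in the fall of the MHC class II genes was not tested.

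Most smooth muscle genes tested fell. All 15 smooth muscle markers tested had a change below 0, with a median of -0.55, and 10 fell. Actg2, the actin of visceral muscle, read 564, 680.1 and 689 in fed and 174, 378 and 249 in fasted arrays (2.08-fold lower, adjusted p = 0.0042). Tpm2, a tropomyosin, read 933, 1096 and 977 in fed and 289, 514 and 613 in fasted arrays (1.82-fold lower, adjusted p = 0.011). Cnn1, calponin, read 304, 371 and 346 in fed and 116, 226 and 179 in fasted arrays (1.66-fold lower, adjusted p = 0.018). Fasted replicate 1 was the lowest array in each. Myl9, Tagln, Flna, Mylk, Acta2, Actn1 and Tpm1 fell by 0.38 to 0.74, while Myh11 (-0.33) and Csrp1 (-0.23) did not pass. The summed level was 10630 to 11940 in fed and 5939 to 9072 in fasted arrays after removal of the shift. The calls of Myl9 and Cnn1 were lost without fed replicate 2, and that of Myl9 without fed replicate 3. Without fed replicate 2 the list had 5 lowered members and without fasted replicate 1 it had 7. In bulk tissue, fewer cells of a type and less RNA per cell cannot be told apart.

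Of 22 genes of fibroblasts and extracellular matrix 10 fell, with a median of -0.41. Col1a1, a chain of the main fibrillar collagen, read 78.3, 109 and 94.8 in fed and 23.6, 29.0 and 29.9 in fasted arrays (2.80-fold lower, adjusted p = 3.03e-05). Col3a1 read 1203, 1113 and 1147 in fed and 367, 518 and 427 in fasted arrays (2.19-fold lower, adjusted p = 0.00099), and Col6a3, of the beaded-filament collagen, 62.7, 81.0 and 74.6 in fed and 17.6, 30.2 and 27.96 in fasted arrays (2.42-fold lower, adjusted p = 0.00061). The highest fasted array of these collagens was below the lowest fed array. Col6a2, Postn, Col1a2, Col5a2, Nid1, Fbln1 and the receptor Pdgfrb fell by 0.55 to 1.07. Vim and Dcn, with -0.32 and -0.25, did not pass. The summed level was 5702 to 6089 in fed and 3643 to 4516 in fasted arrays after removal of the shift, with 7 to 10 members lowered when arrays were left out and 16 as deposited. The smooth muscle sum moved with it, and its part in the fall of matrix genes was not tested.

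**Figure D4:**
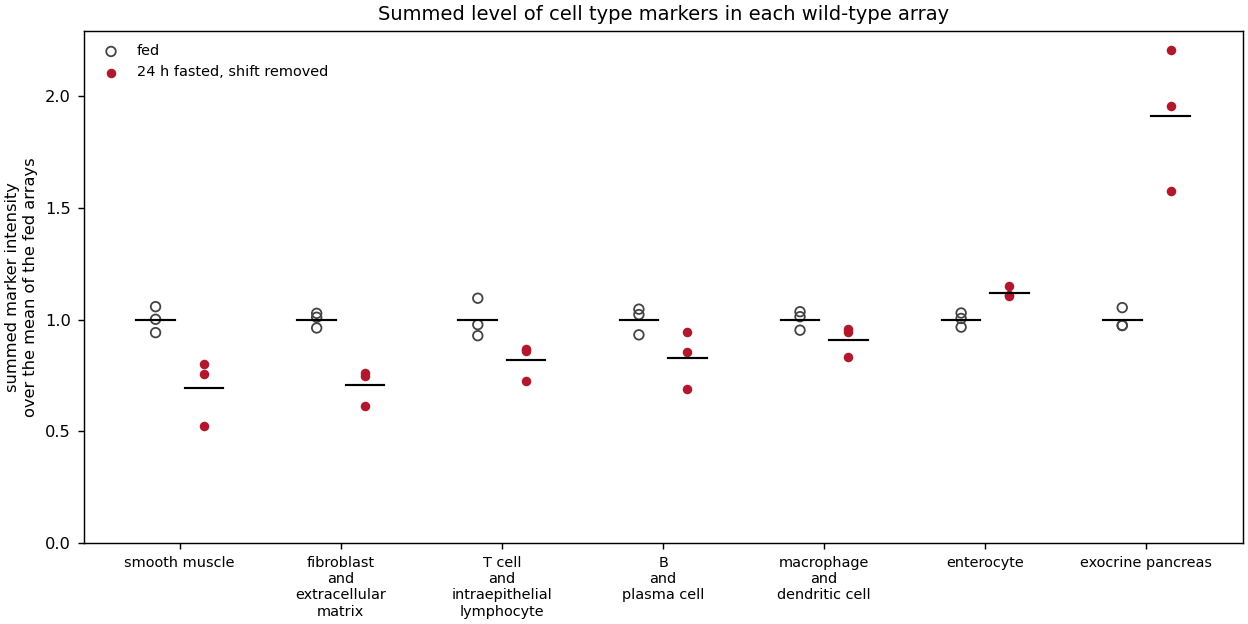
Summed intensity of 7 lists of cell type markers in each wild-type array, over the mean of the 3 fed arrays (vertical axis, ratio), with fed arrays as open circles, fasted arrays filled (shift removed) and bars at the means. Smooth muscle and matrix sums lie below the fed arrays in all 3 fasted arrays, with fasted replicate 1 lowest, and the exocrine pancreas sum lies above.

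Genes of the exocrine pancreas, whose digestive enzymes are made outside the intestine, had the largest changes on the array. Of 18 tested 10 rose, with a median of 2.88. Cela2a, a pancreatic elastase, read 224, 7.76 and 10.3 in fed and 2815, 2834 and 1687 in fasted arrays. Ctrb1, chymotrypsinogen, read 54.0, 16.2 and 16.3 in fed and 2686, 1832 and 1024 in fasted arrays and Prss2, a trypsinogen, 57.7, 22.9 and 20.2 in fed and 2153, 1568 and 919 in fasted arrays. Fed replicate 1 was the highest fed array of each, and every fasted array was above it. The fasted PPARα-null arrays were not alike, and replicate 2 stayed near the fed level. There Cela2a read 4820, 17.1 and 4923, Ctrb1 2835, 14.5 and 2767 and Prss2 1919, 22.1 and 2303. What sets the level of these genes in an array was not tested. The fold was 111 for Cela2a (adjusted p = 0.019), 86.1 for Ctrb1 (adjusted p = 0.0092) and 59.4 for Prss2 (adjusted p = 0.0066). Cela3b, Ctrl, Cela1, the lipase Cel, Sycn of the zymogen granule and Rnase1 rose by 4.28 to 6.73 on the log2 scale and Clps, colipase, by 1.49. Members that the gut itself is known to make did not pass, such as Spink1 (6188, 5621 and 5140.4 in fed and 5336, 5335 and 5113 in fasted arrays) and Zg16 (0.024).

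Of these 18, 4 rose without fed replicate 3, 5 without fed replicate 2, 7 without fasted replicate 1 and 8 without fasted replicate 2 or 3. The summed level of the list was 26145 to 28305 in fed arrays and 42342 to 59234 in fasted arrays after removal of the shift. Cpa1, Cpb1, Pnliprp1 and Ctrc, other pancreatic enzymes, had fed means of at most 20 and so were not tested, though Cpa1 read 18.2, 3.84 and 2.60 in fed and 934, 907 and 481 in fasted arrays. Pancreas was taken off at dissection per the study's methods. Of 8 markers of adipocytes tested, 1 rose, Fabp4, which endothelium also carries (0.79), and Cidec had 0.24 without passing. The call of Fabp4 was lost as deposited, where 1 other member fell, and without fed replicate 3 the list had 3 raised members. The defining markers Adipoq, Lep and Retn had fed means of 8.70, 4.58 and 6.07 and were not tested.

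Some genes crossed the level of 20 that the test required. With a fed mean of at most 20 and a fasted mean over 20 there were 84 genes, and 391 went the other way, on levels as deposited, without removal of the shift. Beside pancreatic genes, the first set held Saa1, a serum amyloid of the acute phase, which read 8.28, 13.1 and 12.03 in fed and 141, 21.5 and 21.3 in fasted arrays, and Acox2, a peroxisomal oxidase of branched chains, which read 11.7, 17.3 and 19.1 in fed and 46.7, 40.4 and 69.0 in fasted arrays. Fasted replicate 1 stood out for Saa1, as it did for Serpina3n. In the second set Dnajb2, another co-chaperone, read 59.8, 50.7 and 59.7 in fed and 19.0, 22.1 and 18.4 in fasted arrays and Hid1 35.5, 43.8 and 36.0 in fed and 18.7, 20.9 and 16.8 in fasted arrays, while Car1, a carbonic anhydrase, read 54.4, 3.81 and 67.6 in fed and 4.59, 4.08 and 4.38 in fasted arrays and did not pass. The 10 genes with the highest fed means, led by the defensin Defa31 and Lyz1, included Apoa1 and Fabp1 as the 2 that passed.

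The fasting response was then set beside that of PPARα-null mice, whose own shift was -0.33. The difference of the responses was tested in 1 model of all 12 arrays. Among the 1261 genes that changed in wild-type mice, 377 (29.9%) differed between the genotypes at an adjusted p under 0.05, beside 29.6% of the 6107 genes tested for it. In 121 of these the difference had the sign of the wild-type change by at least 1 probe set, 82 raised and 39 lowered. The sizes of the 2 changes were not compared. The 121 include genes that moved the opposite way in PPARα-null mice, such as Myc (0.57 in wild-type and -0.89 in PPARα-null mice). Ces1g, which fell by 1.75 in wild-type mice, read 258, 232 and 157 in fed and 177, 160.4 and 180.0 in fasted PPARα-null mice, a change of 0.039 (adjusted p of the difference 0.00071). Sgk2 fell by 1.70 in wild-type and by 0.59 in PPARα-null mice (adjusted p of the difference 0.015). Rdh16f2, Upb1 and N4bp2l1 rose more in wild-type mice, by 1.77 against 0.67 (adjusted p of the difference 0.0014), 1.54 against 0.61 (0.036) and 1.56 against 0.43 (0.018).

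Other genes moved more in PPARα-null mice. Pdk4 rose by 1.76 in wild-type and by 4.34 in PPARα-null mice (adjusted p of the difference 0.00025), Cirbp by 1.63 and 4.22 (0.00023) and Arrdc4 by 1.79 and 3.27 (0.0016) in 1 of its probe sets. The other probe set of Arrdc4 went the opposite way, with 0.80 in wild-type and -0.59 in PPARα-null mice (0.011), so that its direction is not settled. Pck1 rose by 1.79 and 2.96 (0.0033), and Ndrg1 by 1.70 and 3.12 (0.033). Of the falls, Hsph1 changed by -1.52 in wild-type and -3.34 in PPARα-null mice (0.0035), Gda by -1.62 and -2.83 (0.015), Scd2 by -3.19 and -4.03 (0.03) and Ighm by -1.94 and -4.36 (0.032). The difference did not pass in 3 of 5 probe sets of Ndrg1, 1 of 2 of Hsph1, 4 of 7 of Ighm and 1 of 2 of Scd2, where the fall was -2.88 in wild-type and -1.90 in PPARα-null mice (adjusted p of the difference 0.17). For Acot1, with 2.63 and 2.63, the difference did not pass (adjusted p = 0.91). The genotypes also differ in substrain, which cannot be told apart from the deletion.

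**Figure D5:**
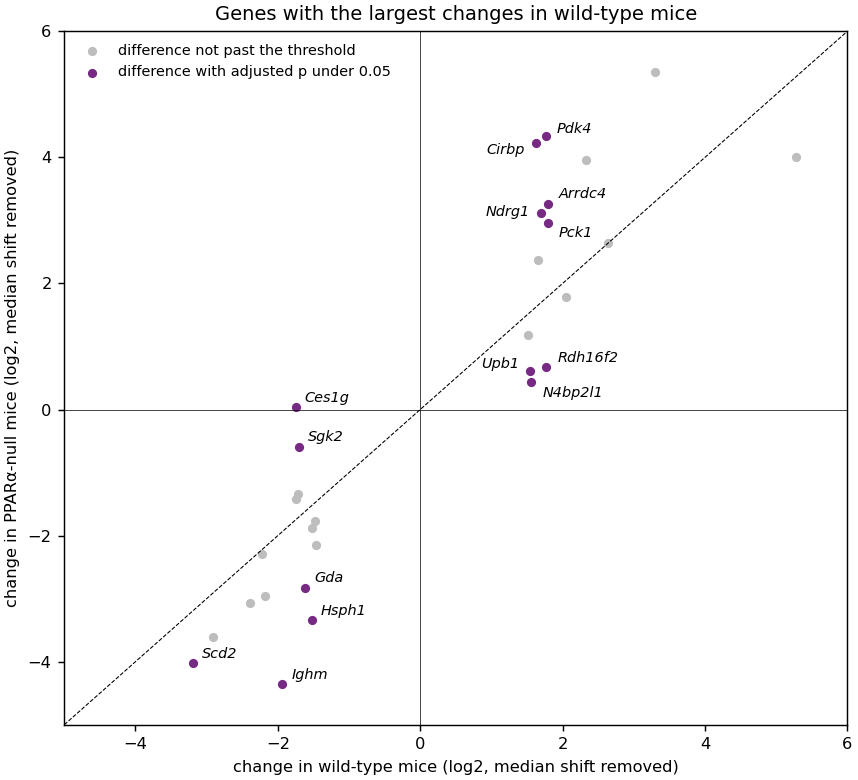
Change upon fasting in PPARα-null mice (vertical axis) against that in wild-type mice (horizontal axis), both log2 with each genotype's own shift removed, for the genes with the largest wild-type changes. Purple points differ between genotypes at an adjusted p under 0.05, the dashed line marks equal change, and Ces1g lies at 0.04 in PPARα-null mice.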

How the data were processed

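Total RNA of the small intestine was read on 12 Affymetrix MOE430A arrays, 3 per group. The deposited values are intensities on a linear scale, which the authors background-corrected and normalized (GCRMA 2.20 per the submitters' processing notes); log2 was taken here. For arrays, precision is limited by their number. Of 22690 probe sets, 20393 had 1 gene symbol in GEO's platform annotation, 691 had several and 1606 none, and the last 2 kinds were left out.

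A linear model over all 12 arrays was fitted with limma 3.58.1 in R 4.3.3, and fasted minus fed wild-type mice was tested over probe sets with a wild-type fed mean over 20, after the median change was removed. Adjusted p-values are Benjamini-Hochberg over these probe sets. The difference between genotypes was tested over probe sets with a mean over 20 in any group, with an adjusted p under 0.05 as the threshold. The model was first tested on simulated data. For each list, the probe set with the highest mean over the 6 wild-type arrays stood for its gene.

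Genes were named by rule: the largest rises and falls, the most abundant, those that crossed a level of 20, and the leading called and most abundant other members of each list. The members and lists were chosen with earlier results of these data known, and 7 genes, given in the closing section, were chosen after their values were seen. Motifs were sought in RefSeq windows of 250 bases (GRCm38.p6). Besides the elements described above, PPAR response elements were sought in fatty acid oxidation genes, E-boxes in clock genes and sterol response elements in cholesterol synthesis genes. Each lay in 1 member with a window, of 32, 8 and 12, and in 0 of the 13, 3 and 4 called members with one. The shares of all genes were 0.57%, 6.86% and 1.22%. The alternatives were other scalings, filters, probe set choices, variances and thresholds, each wild-type array left out, and the replicate number as a block, and 1, a shift that follows the level, was added after seeing the data.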

Additional observations from a re-analysis of the deposited data

Results flagged for a closer look

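The fasting response of 18 genes, chosen for the size of their wild-type change or after their values were seen, differed between wild-type and PPARα-null mice at an adjusted p under 0.05 (limma, test of the difference itself). The differences, wild-type minus PPARα-null change in log2 on levels as deposited, include the gap between the shifts of -0.28 and -0.33. Below 0 lay Cirbp (-2.55), Pdk4 (-2.52), Ces1g (-1.74), Arrdc4 (-1.43), Ndrg1 (-1.38), Fabp6 (-1.21), Pck1 (-1.13), Sgk2 (-1.06) and Guca2b (-0.56). Above 0 lay Clec2h (0.39), Scd2 (0.88), Upb1 (0.98), Rdh16f2 (1.15), N4bp2l1 (1.18), Gda (1.26), Vwa5a (1.85), Hsph1 (1.86) and Ighm (2.47). The other probe set of Arrdc4 had 1.44 (adjusted p 0.011), the opposite direction, and in Ndrg1, Scd2, Hsph1, Ighm and Clec2h at least 1 other probe set did not pass. For genes that fall, a value above 0 is a deeper fall in PPARα-null mice. The substrains differ with the genotype and cannot be told apart from it.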

How the results depend on the processing

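The count of changed genes was 1261 (618 raised, 632 lowered). Taken as deposited, with no shift removed, it was 2358 (173 raised, 2180 lowered), which moved the raised share of changed genes from 49.0% to 7.34%. Quantile normalization gave 556 raised and 733 lowered, a raised share of 42.9%. Without a filter on level 2193 changed and 1478 rose, and with a fed mean over 100 it was 582 (234 raised, 347 lowered). All other alternatives stayed within 1.5 times of these counts, and the replicate block gave 1285. Replicate numbers share only a number: deviations of same-numbered fed and fasted arrays correlated at 0.218, 0.081 and 0.036, and other pairs at -0.169 to 0.112. With 1 wild-type array left out at a time, 1093 to 1324 genes changed, 530 to 642 rose and 509 to 677 fell. Of 629 genes with a raised and 643 with a lowered probe set, 390 and 384 were called with each of the 6 arrays left out, and 178 and 585 under all 4 other scalings. Of 243 named probe sets tested 156 were called, 86 of them under every alternative that still tested them, and no called direction turned. Filters and probe set choices left some of the 156 out. Those kept were 103 with a fed mean over 100, 148 with 1 probe set per gene and 137 without probe sets ending in _s_at or _x_at. The cause of lost calls was not tested. Probe sets with a fed mean of at most 20 were not tested, so changes there are outside the count of 1261.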

Other observations

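Several genes outside the lists stood out and were chosen after their values were seen. Fabp6, the bile acid binding protein of the ileum, read 7231, 7898 and 6457 in fed and 2043, 2798 and 2764 in fasted arrays. It fell by 1.23 on the log2 scale (adjusted p = 0.0002, limma), a call kept under every alternative. In PPARα-null mice it read 7422, 8395 and 5992 when fed and 5656, 6227 and 5584 when fasted, a change of 0.023 (adjusted p of the difference 0.0013). Vwa5a read 81.4, 93.7 and 88.6 in fed and 132, 171 and 132 in fasted arrays and rose by 0.998, while in PPARα-null mice its change was -0.81 (adjusted p of the difference 1.29e-05). Clec2h, a C-type lectin of the gut, rose by all 3 of its probe sets (0.78, 0.59 and 0.50). The last of these calls was lost as deposited, with quantile normalization, with wild-type arrays alone and without fed replicate 2 or 3, and the second as deposited. Ptgr1, a prostaglandin reductase, rose by 0.73, and Sult1d1, a sulfotransferase, by both of its probe sets (0.74 and 0.44). Both calls were lost as deposited. In the second the groups overlapped, and its call was also lost with quantile normalization, with wild-type arrays alone, with a shift that follows the level and without fed replicate 2 or 3 or fasted replicate 1 or 3. Guca2b, the hormone uroguanylin, read 5136, 5363 and 5688 in fed and 6613, 5391 and 6450.4 in fasted arrays and rose by 0.47, a call lost as deposited, with quantile normalization and with a shift that follows the level. Tff2, a trefoil peptide of gastric and duodenal mucosa, read 74.8, 31.1 and 1282 in fed and 705, 4954 and 576 in fasted arrays and did not pass (adjusted p = 0.068), with a wide spread in both groups.

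Small lists of other cell types gave few calls. Of 6 endothelial genes tested 1 rose, Lyve1 of lymphatic vessels (36.2, 34.4 and 33.6 in fed and 46.3, 33.3 and 57.2 in fasted arrays), by 0.64, a call lost as deposited and without fasted replicate 3, and Plvap had 0.05. Pf4, the platelet factor tested for blood, fell by 0.47, a call lost without fed replicate 3 or fasted replicate 2 and with a shift that follows the level. Of 3 genes of enteric neurons and glia 0 were called by limma, with 1 lower at an unadjusted p under 0.05, and Vip and Stmn3 had -0.20 and -0.21. Cps1, in the list for hepatocytes and also made by the gut, had -0.25 and did not pass.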
